A study of Mus musculus with 12 samples.

Results

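The genes described here were 40 mouse genes of the pancreatic acinar cell, the exocrine cell that makes the digestive enzymes: 26 enzymes and enzyme cofactors, 4 transcription factors, 6 zymogen granule or other secreted proteins and 4 further acinar genes. They were chosen by gene symbol, and all 40 were found among the 38924 genes of the count tables. RNA-seq had been performed on 12 tumors of RIP1Tag2 mice of strain C57Bl6, in which a viral oncogene under the rat insulin promoter is expressed in pancreatic beta cells, so that insulinomas, a form of pancreatic neuroendocrine tumor (PanNET), arise in the islets. All 12 tumors therefore carry the transgene. The groups were 4 tumors from mice given saline (control), 4 from mice given sunitinib (which blocks signaling by VEGF and PDGF receptor kinases), plus 4 from mice given rapamycin, an mTOR inhibitor, together with sunitinib (R+S). Per the labels, mice of every group were 15.5 weeks old at the start and were treated for 4 days. The promoter directs the oncogene to beta cells, not to acinar cells. The labels number the tumors as controls 1, 2, 3 and 4, sunitinib 5, 6, 8 and 12, and R+S 4, 5, 7 and 10, and values of a group are given below in that order.

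Acinar cells pack inactive enzyme precursors, the zymogens, together with active amylase and lipase, into zymogen granules that are released into the duct when the gut hormone cholecystokinin or acetylcholine acts on the cell. The transcription factors Ptf1a and Rbpjl form with a common E protein the complex PTF1, which binds the promoters of most enzyme genes. Nr5a2 (LRH-1) assists it, and Bhlha15 (Mist1) sets up the secretory machinery of acinar and of other secretory cells. Islet endocrine cells lie among acinar tissue in the normal pancreas and do not make these enzymes.

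Between 31872342 and 44215054 reads per tumor had been counted on genes. Levels are given as CPM (counts scaled to the same total of reads) of the TMM-scaled library, and 1 read in control 1, the deepest library, corresponds to 0.0214 CPM. The 15 islet endocrine markers examined were all detected in every group. Their summed level was 13305 CPM in sunitinib 6 and 45542 to 94883 CPM in the 11 other tumors, so sunitinib 6 stood apart in this sum, and results are also given without it. Not all of the markers were low in sunitinib 6. Ins2 (784 CPM) and Pdx1 (4.17 CPM) were at their lowest of all tumors there. Chga (2849 CPM), however, lay within the control range and Chgb (4075 CPM) above every control. The labels carry a prefix whose meaning they do not give: it is the same for all 4 controls, for sunitinib 5, 6 and 8 and for R+S 5 and 7, and since each prefix is found in a single group, what it marks cannot be told apart from the treatment. Nothing in the labels says that each tumor came from a different mouse, and the p-values measure the spread between tumors.

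Most of the acinar genes were low in control tumors and higher in all 8 treated tumors. Controls 2, 3 and 4 had few reads of most of them. Control 1 was well above the detection limit for many, with 845 reads of Ctrb1. The 26 enzyme genes together took 0.0129, 0.00136, 0.00112 and 0.00171% of all gene reads in the controls. In the sunitinib-treated tumors they took 2.92, 4.59, 3.804 and 1.25%, and in the R+S-treated tumors 0.853, 1.41, 0.338 and 1.77%. The lowest treated tumor, R+S 7, was 26.3-fold above the highest control. Control 1 was itself apart from the other controls and held 78.5% of the enzyme reads of its group. The median share was 3.36% with sunitinib and 1.13% with R+S, a ratio of 2.97, but the ranges of the 2 treated groups overlapped, since sunitinib 12 lay below R+S 5 and R+S 10. Among tumors of 1 label prefix the share ran from 2.92% to 4.59% (sunitinib 5, 6 and 8) and from 0.338% to 1.41% (R+S 5 and 7). The counting error of these shares is small beside the spread between tumors (in R+S 7 the 95% Wilson interval was 0.336% to 0.340%), and it covers counting error only. In bulk RNA more acinar cells and more enzyme RNA per acinar cell cannot be told apart.

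**Figure D1:**
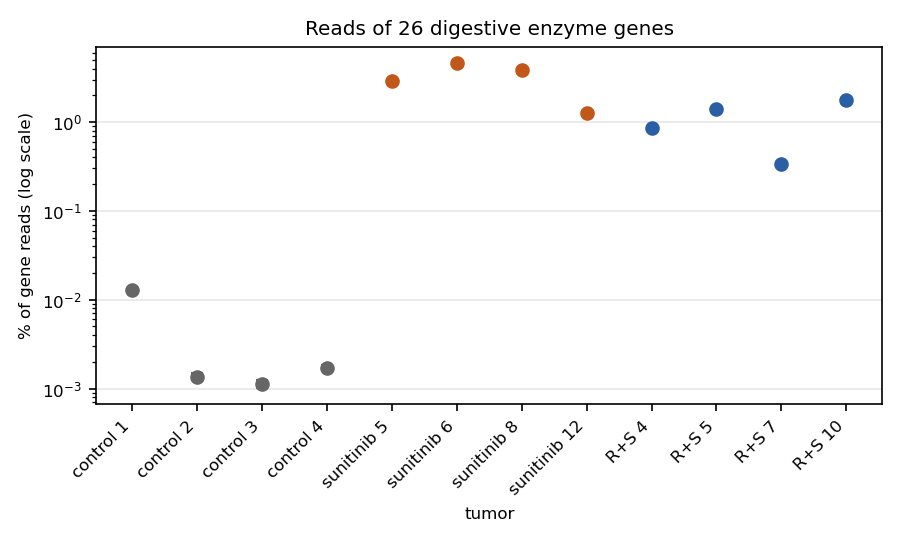
Percentage of gene reads that fell on the 26 digestive enzyme genes in each of the 12 tumors, on a log axis, with 95% Wilson intervals that are mostly smaller than the points. Controls lie between 0.00112% and 0.0129% and treated tumors between 0.338% and 4.59%.

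Of the 40 genes, 37 had enough reads to be tested, and Amy2a2, Amy2a5 and Cela3a did not. Sunitinib-treated tumors had 34 of the 37 genes higher than controls and 0 lower, where 1.93% of all 16645 tested genes were called higher and 2.55% lower (edgeR quasi-likelihood test, adjusted p under 0.05). R+S-treated tumors had 32 higher and 0 lower against backgrounds of 1.55% and 2.61%. At an unadjusted p under 0.05, and by DESeq2, there were also 0 lower in both comparisons. A gene could pass the filter through its level in treated tumors alone, so these counts describe the list and are no independent support. The median log2 difference from control was 9.63 with sunitinib and 8.30 with R+S, while the medians of all tested genes were 0.03 and 0.01. With the genes that had 0 control reads set at the lower bound that 3 reads allow over the control group, the medians were 9.58 and 8.17. Both comparisons use the same 4 controls. The size of these differences depends on control 1: without it the medians were 11.95 and 10.41, with 33 and 31 genes higher. Without sunitinib 6, the median for sunitinib was 9.30 with 33 genes higher. The groups did not overlap, with treated tumors higher, for 33 of the 37 genes in both comparisons, against 5.17% of all tested genes with sunitinib and 11.6% with R+S, and with treated tumors lower for 0, against 5.76% and 11.9%. Every gene called higher than control had groups that did not overlap (exact two-sided permutation p = 0.0286 on log2 CPM, the smallest that 4 against 4 tumors allow), except Amy1 (p = 0.0571).

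**Figure D2:**
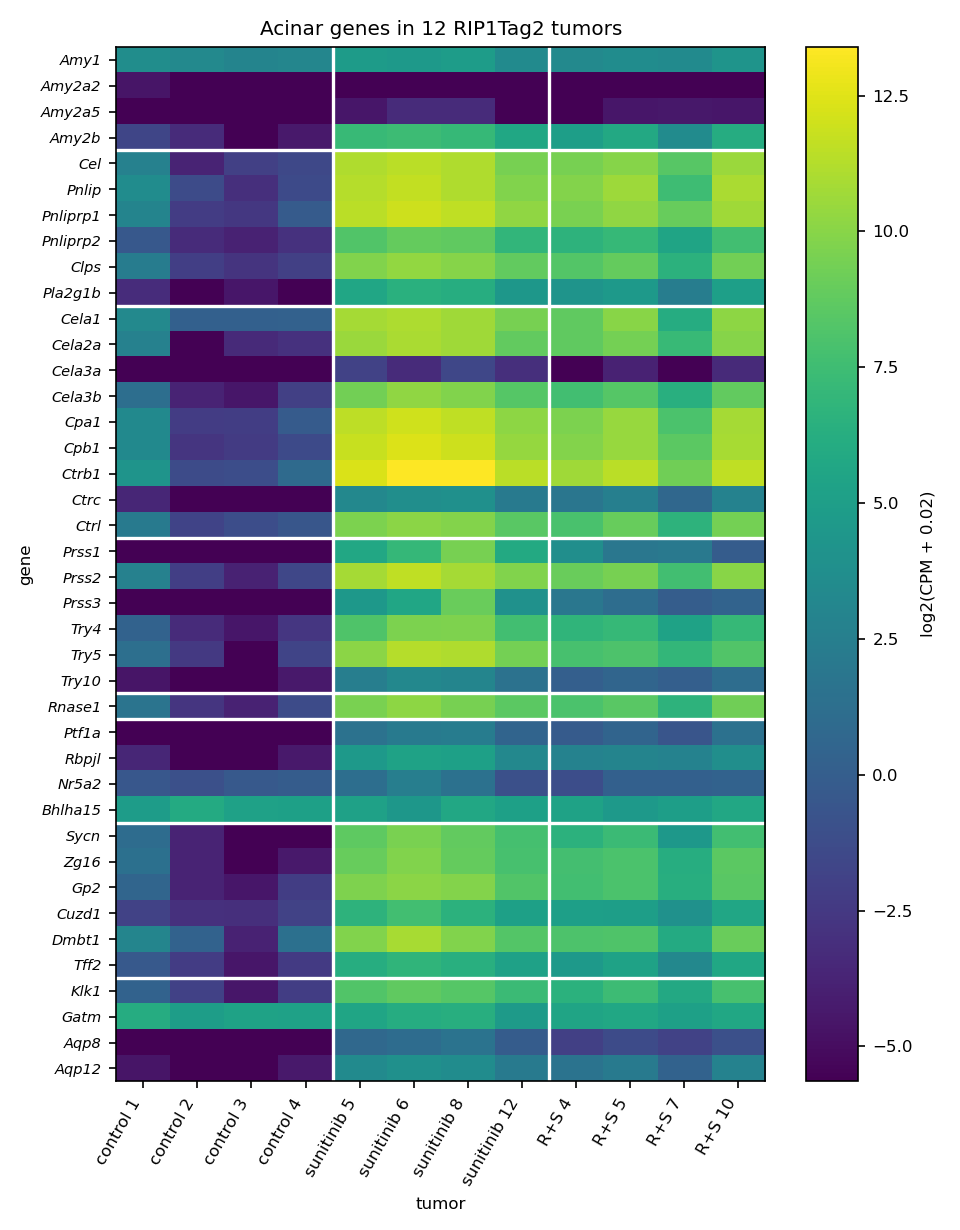
Normalized level of the 40 acinar genes (rows, grouped by role between white lines) in the 12 tumors (columns), as log2(CPM + 0.02). The 4 control columns are dark for all but Amy1, Nr5a2, Bhlha15, Gatm, Cela1 and the traces in control 1. Weaker traces are seen in other controls, such as Dmbt1 in controls 2 and 4 and Ctrb1 in control 4. R+S 7 is the dimmest of the 8 treated columns.

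By edgeR, both PTF1 subunits rose in treated tumors, and the 2 other transcription factors did not pass the test. Ptf1a, a subunit that is restricted to exocrine cells and some neurons, had 0 reads in all 4 controls. It had 113, 167, 193 and 44 reads in sunitinib-treated tumors and 31, 55, 23 and 108 in R+S-treated tumors. Its group level was at least 190.2-fold higher with sunitinib and at least 75.5-fold higher with R+S than 3 reads over the controls would give (edgeR adjusted p = 6.13e-04 and 0.00242). Rbpjl, the acinar form of the RBPJ protein, had 3, 0, 0 and 1 reads in the controls and stood at 24.9, 39.2, 35.96 and 9.56 CPM with sunitinib and 6.99, 7.85, 6.99 and 13.4 CPM with R+S. It was higher than control by 9.93 ± 0.75 (adjusted p = 1.76e-05) and 8.30 ± 0.73 (adjusted p = 1.29e-04) on the log2 scale, mean ± SE. Both genes were thus absent or at traces in controls and measurable in every treated tumor.

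Nr5a2 was detected in all tumors at low level, with 0.706, 0.476, 0.761 and 0.9302 CPM in controls, 2.35, 5.75, 2.74 and 0.481 in sunitinib-treated and 0.444, 1.11, 1.11 and 1.26 in R+S-treated tumors. Sunitinib 6 was the highest tumor and sunitinib 12 lay within the control range, so the groups overlapped, and the log2 difference of 1.98 ± 0.59 (adjusted p = 0.094) with sunitinib did not pass by edgeR (DESeq2 called it, as did edgeR without sunitinib 12), nor did that of 0.45 ± 0.58 (adjusted p = 0.707) with R+S. Bhlha15, which is also made in endocrine and plasma cells, was the most abundant of the 4 in controls and stood at 29.5, 63.1, 38.2 and 36.8 CPM in controls, 37.3, 21.9, 55.6 and 35.3 in sunitinib-treated and 39.7, 24.97, 33.2 and 54.2 in R+S-treated tumors. Its groups overlapped throughout, and the log2 differences from control were -0.16 ± 0.32 (adjusted p = 0.811) and -0.14 ± 0.32 (adjusted p = 0.847). Bhlha15 made up 98.5% to 99.6% of the length-scaled level of the 4 factors in controls, 36.6% to 79.0% with sunitinib and 74.2% to 85.9% with R+S.

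**Figure D3:**
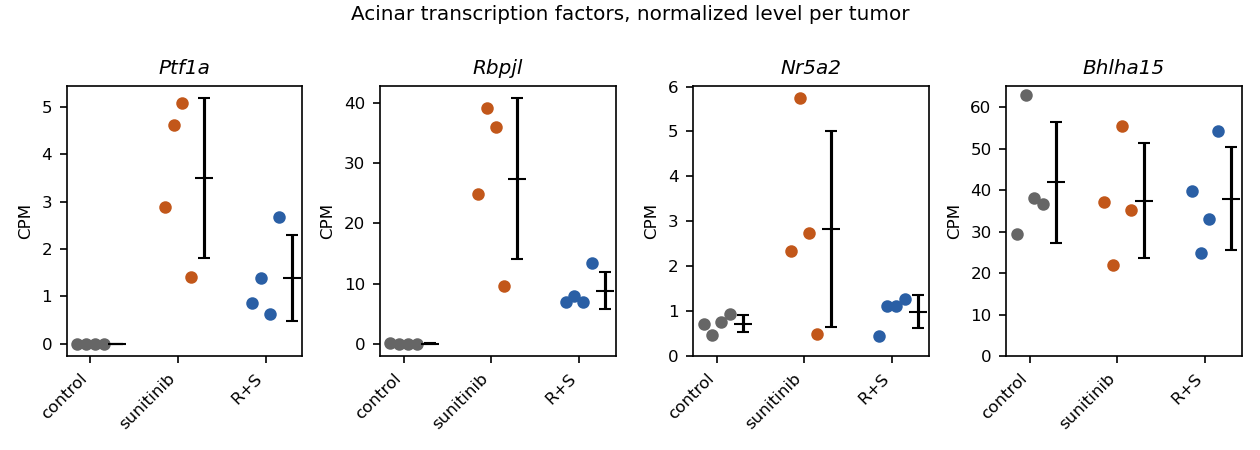
CPM of the 4 acinar transcription factors in each tumor (points), with the mean and SD of each group of 4 (black). Ptf1a and Rbpjl are at or near 0 in controls and above 0 in all treated tumors, whereas Nr5a2 and Bhlha15 overlap between groups.

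Of the 4 listed amylases, which split starch, 2 had enough reads to be tested. Of these the pancreatic gene Amy2b behaved like the other enzymes and Amy1 did not. Amy2b stood at 0.299, 0.0794, 0 and 0.0282 CPM in controls, 142, 169, 140.5 and 52.3 in sunitinib-treated and 32.4, 58.3, 11.4 and 71.8 in R+S-treated tumors. Every treated tumor lay far above every control, by 10.12 ± 0.91 (adjusted p = 5.02e-05) with sunitinib and 8.58 ± 0.87 (adjusted p = 2.57e-04) with R+S on the log2 scale. Amy1, the gene of salivary and liver amylase, was already present in controls, with 13.05, 10.1, 7.76 and 8.46 CPM in controls, 28.1, 25.2, 30.0 and 10.9 in sunitinib-treated and 9.85, 12.2, 11.2 and 18.9 in R+S-treated tumors. Sunitinib 12 lay inside the control range, and the log2 difference of 1.26 ± 0.32 (adjusted p = 0.0463) lost its call in 7 of 8 fits that left out 1 tumor of the comparison, with adjusted p up to 0.152. With R+S it was 0.41 ± 0.31 (adjusted p = 0.497). Amy2a2 had 1 read in all 12 tumors together and Amy2a5 had 7 with sunitinib, 3 with R+S and 0 in controls. Amy2a1, which is not among the 40 genes, had 0 reads in controls, 85 with sunitinib and 48 with R+S. Of the 50-base words in Amy2a2 and Amy2a5 transcripts, 100% and 53.5% also occur in another gene (for Amy2b 40.2% and for Amy1 33.3%), and since reads that align to several places had not been counted, amylase levels are uncertain and may be too low.

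All 6 genes of lipid digestion rose in both treated groups. Cel, the bile salt-stimulated carboxyl ester lipase, stood at 6.72, 0.0529, 0.228 and 0.338 CPM in controls, 2281, 2694, 2252 and 737 in sunitinib-treated and 721, 983, 347 and 1479 in R+S-treated tumors. Pnlip, the main triglyceride lipase of the pancreas, stood at 12.2, 0.397, 0.101 and 0.366 CPM in controls, 2454, 3249.6, 2252 and 889 in sunitinib-treated and 948, 1526, 175 and 2056 in R+S-treated tumors. The related Pnliprp1, whose protein has little lipase activity, stood at 7.51, 0.185, 0.152 and 0.874 CPM in controls, 2747, 3852, 3006 and 1211 in sunitinib-treated and 775, 1208, 513 and 1674 in R+S-treated tumors. In each of the 3 genes the lowest treated tumor was R+S 7, and control 1 was the only control above 1 CPM. Clps, the colipase that anchors pancreatic lipase to fat droplets, stood at 5.09, 0.212, 0.127 and 0.225 CPM in controls, 892, 1292, 983 and 449 in sunitinib-treated and 316, 487, 97.1 and 644 in R+S-treated tumors. The log2 differences of these 4 genes from control ran from 9.28 (Clps) to 10.25 (Pnliprp1) with sunitinib and from 8.05 to 8.88 (Cel) with R+S. Pnliprp2, a galactolipase, and Pla2g1b, the pancreatic phospholipase A2, reached 116 to 472 and 21.8 to 87.7 CPM with sunitinib and 44.1 to 202 and 5.303 to 34.1 CPM with R+S, from at most 0.727 and 0.0856 CPM in controls.

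The chymotrypsin, elastase and carboxypeptidase genes held the transcript with the highest counted level of the list. Ctrb1, chymotrypsinogen B, stood at 18.1, 0.397, 0.431 and 1.92 CPM in controls, 5163, 10402, 10755 and 2750.3 in sunitinib-treated and 1629, 2698, 610.2 and 3117 in R+S-treated tumors. It was higher than control by 10.44 ± 1.497 (adjusted p = 0.00151) and 8.59 ± 1.39 (adjusted p = 0.00523) on the log2 scale, and sunitinib 6 and 8 were above the 6 other treated tumors. Cpb1, carboxypeptidase B, stood at 10.5, 0.132, 0.178 and 0.366 CPM in controls, 3563, 5339, 3857 and 1343 in sunitinib-treated and 926, 1404, 382 and 1938 in R+S-treated tumors. Cpa1, carboxypeptidase A, stood at 10.7, 0.185, 0.203 and 0.846 CPM in controls, 2849, 4170.4, 3013 and 1119 in sunitinib-treated and 779.9, 1391, 257 and 1853 in R+S-treated tumors. The log2 differences were 10.28 ± 1.58 and 9.86 ± 1.49 with sunitinib and 8.68 ± 1.48 and 8.47 ± 1.41 with R+S, and none of the treated tumors overlapped a control. Cela1, an elastase that some other tissues also make, stood at 9.86, 1.14, 1.14 and 1.18 CPM in controls, 1799, 2129.8, 1671 and 727 in sunitinib-treated and 429.7, 1038, 71.8 and 1156 in R+S-treated tumors, and was the one gene of this role above 1 CPM in all 4 controls. Its level in R+S 7 was below that of every other treated tumor.

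The other members of this role, Cela2a, Cela3b, Ctrl and Ctrc, also rose, the first 3 with log2 differences from control of 9.05 (Ctrl) to 10.14 (Cela3b) with sunitinib and 8.00 to 8.61 with R+S. Ctrc, chymotrypsin C, had 3 reads in the controls, and its ratio to control was 577-fold (197 to 2799) with sunitinib and 247-fold (84.2 to 1200.3) with R+S (95% counting intervals). Ctrc lies over part of Cela2a in the annotation, and reads that overlap 2 genes had been left out, so both may be undercounted. Cela3a, with 0 reads in controls, had 28 with sunitinib and 5 with R+S. It shares 34.2% of its words with Cela3b. Ribonuclease 1 (Rnase1), which digests dietary RNA, stood at 3.21, 0.132, 0.0507 and 0.395 CPM in controls, 768, 1135, 718 and 390.2 in sunitinib-treated and 262, 368, 104 and 604 in R+S-treated tumors, and was higher than control by 9.58 ± 1.18 (adjusted p = 5.32e-04) and 8.41 ± 1.13 (adjusted p = 0.00163).

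Trypsinogens are the precursors of trypsin, the protease that activates all other zymogens, and become active when enteropeptidase cuts behind a run of aspartates and a lysine. The coding sequences of the 6 genes, all on chromosome 6 (GRCm38, GENCODE M21 transcripts, 5′ to 3′, bases 40 to 93 of the coding sequence), are shown around this site because their likeness limits how well reads can be assigned. The codons of the 4 aspartates and the lysine are in capitals.
Prss1 (chr6:41458932-41463786, + strand): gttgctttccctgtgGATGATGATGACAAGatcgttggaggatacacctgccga
Prss3 (chr6:41373814-41377678, - strand): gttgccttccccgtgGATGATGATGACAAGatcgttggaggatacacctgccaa
Prss2 (chr6:41521787-41525079, + strand): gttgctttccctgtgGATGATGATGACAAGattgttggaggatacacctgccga
Try4 (chr6:41302269-41305532, + strand): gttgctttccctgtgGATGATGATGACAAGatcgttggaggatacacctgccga
Try5 (chr6:41311233-41316841, - strand): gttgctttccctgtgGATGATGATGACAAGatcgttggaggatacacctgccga
Try10 (chr6:41354105-41357914, + strand): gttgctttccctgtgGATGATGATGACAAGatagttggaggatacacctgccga
The activation codons were the same in all 6 genes. Over the 741 coding bases Prss1 and Prss3 were 96.4% identical, Try4 and Try5 97.4%, and Prss2 was 88.7% to 91.6% identical to the 5 others. The share of 50-base words that also occur in another gene was 7.83% for Prss2, 40.8% for Try10, 47.6% for Try5, 54.9% for Prss1, 65.6% for Try4 and 66.1% for Prss3.

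All 6 trypsinogens were higher with sunitinib than in controls and 5 of 6 with R+S. Prss2, the most distinct of them, had the most counted reads in each group. It stood at 6.57, 0.212, 0.0507 and 0.310 CPM in controls. The values were 1776, 3027, 1802 and 862 in sunitinib-treated and 528, 706, 198 and 1014 in R+S-treated tumors. Try5 stood at 2.396, 0.159, 0 and 0.282 CPM in controls, 1096, 2452, 2190.2 and 674 in sunitinib-treated and 236, 264, 126 and 296 in R+S-treated tumors. Try4 stood at 1.22, 0.0794, 0.0254 and 0.141 CPM in controls, 286, 815, 855 and 193 in sunitinib-treated and 115, 135, 39.7 and 138 in R+S-treated tumors. Log2 differences from control were 10.00 ± 1.44, 11.08 ± 1.204 and 10.42 ± 1.07 with sunitinib and 8.39 ± 1.35, 8.28 ± 1.09 and 8.09 ± 0.99 with R+S. Try10 had 2 reads in controls and was 537-fold (148 to 4441) higher with sunitinib and 118-fold (32.4 to 984) higher with R+S (95% counting intervals).

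The levels of Prss1 and Prss3 were spread more widely over the treated tumors than those of the other trypsinogens. Both had 0 reads in all controls. Prss1 had 2138, 4636, 27939 and 1841 reads in sunitinib-treated tumors, or 54.6, 128, 737 and 59.1 CPM, and 495, 151, 148 and 36 reads in R+S-treated tumors, or 13.7, 3.81, 4.02 and 0.891 CPM. Sunitinib 8 stood above all others, and R+S 10 was the lowest although it had the most enzyme reads of its group. The 2 treated groups did not overlap, as was also so for Prss3, Try4, Try5 and Try10. R+S was the lower group in all of them, as in 9.73% of all tested genes, and these genes share sequence. Prss3 had 869, 1818, 19728 and 502 reads with sunitinib and 132, 88, 35 and 53 with R+S and showed the same tumor as highest. Prss1 was at least 13451-fold higher with sunitinib and at least 289-fold higher with R+S than 3 reads over the controls, and Prss3 at least 8433-fold and 107-fold. The adjusted p against control was 0.00372 (Prss1) and 0.00622 (Prss3) with sunitinib and 0.0443 and 0.0961 with R+S (edgeR). The R+S call of Prss1 was lost in 7 of 8 fits without 1 tumor, with adjusted p up to 0.11.

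Per 100 reads of Prss2, Prss1 had 3.07, 4.23, 40.9 and 6.85 reads in sunitinib-treated tumors and 2.60, 0.5401, 2.03 and 0.0879 in R+S-treated tumors. For Prss3 the values were 1.25, 1.66, 28.9 and 1.87 and 0.693, 0.315, 0.4804 and 0.129. The predicted gene Gm5771, which shares sequence with both, had 3.72, 6.298, 39.1 and 9.77 and 3.05, 0.687, 2.31 and 0.122. In all 3 genes sunitinib 8 was highest and R+S 10 lowest. Try5, by contrast, had 61.7, 81.0, 122 and 78.1 and 44.7, 37.4, 63.5 and 29.1 reads per 100 of Prss2, and its treated groups overlapped. Control 1, with 307 Prss2 reads, had 0 of Prss1, Prss3 and Gm5771. These ratios were set up after the values had been seen and are given without a test.

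**Figure D4:**
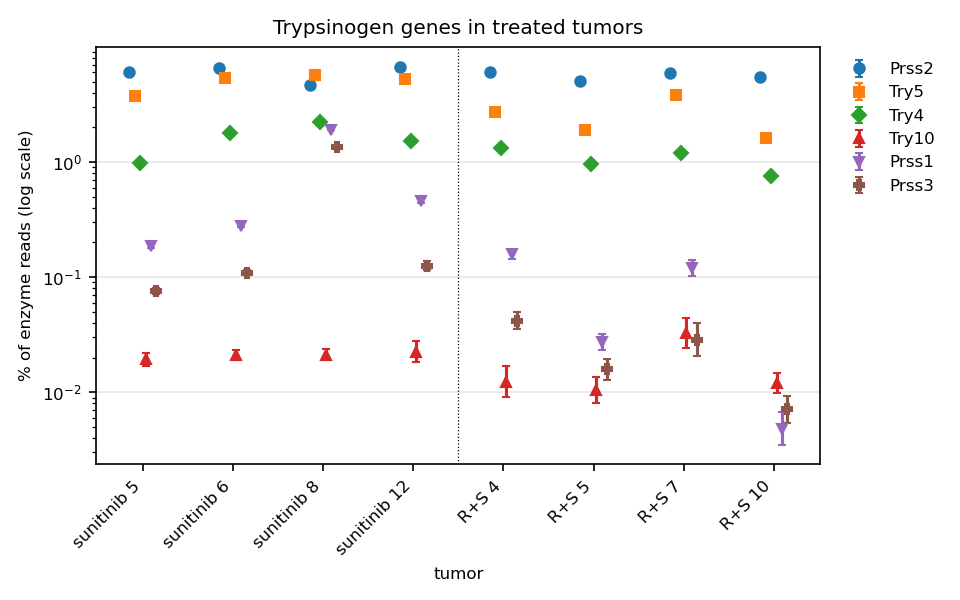
Share of the enzyme reads taken by each of the 6 trypsinogen genes in the 8 treated tumors, on a log axis with 95% Wilson intervals and a dotted line between sunitinib and R+S. Prss2, Try5, Try4 and Try10 keep within 3.53-fold, whereas Prss1 spans 394-fold and Prss3 189-fold, from sunitinib 8 down to R+S 10.

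The 6 granule and other secreted non-enzyme genes all rose in both treated groups. Gp2, the main glycoprotein of the zymogen granule membrane, stood at 1.43, 0.0529, 0.0254 and 0.197 CPM in controls, 849, 1087, 949.9 and 299 in sunitinib-treated and 196, 254, 77.9 and 365 in R+S-treated tumors. Dmbt1, a secreted scavenger receptor of mucosal surfaces, stood at 8.11, 1.22, 0.0507 and 2.59 CPM in controls, 889, 1959.9, 888 and 317 in sunitinib-treated and 273, 284, 64.99 and 519 in R+S-treated tumors. Both were higher in every treated tumor than in any control, by 10.78 ± 1.103 and 8.39 ± 1.24 with sunitinib and 8.94 ± 1.04 and 6.56 ± 1.15 with R+S on the log2 scale. Zg16, a lectin of the granule, stood at 2.59, 0.0529, 0 and 0.0282 CPM in controls, 498, 863, 485 and 228 in sunitinib-treated and 210.0, 259, 75.7 and 381 in R+S-treated tumors. Sycn (syncollin), which takes part in granule fusion, stood at 2.07, 0.0529, 0 and 0 CPM in controls, 417, 749, 448 and 224 in sunitinib-treated and 95.7, 160.3, 22.6 and 201 in R+S-treated tumors. Sycn was lowest of the treated tumors in R+S 7. Cuzd1, another granule protein, and Tff2, a trefoil peptide that is also made in gastric mucus, reached 35.3 to 193 and 37.3 to 111 CPM with sunitinib and 15.6 to 49.4 and 9.57 to 52.7 CPM with R+S, from at most 0.257 and 0.791 CPM in controls.

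Of the 4 remaining genes, 3 rose and Gatm did not. Klk1, tissue kallikrein, stood at 1.22, 0.238, 0.0254 and 0.197 CPM in controls, 305, 419.7, 324 and 162 in sunitinib-treated and 93.5, 171, 56.1 and 232 in R+S-treated tumors. The water channel Aqp12, which is known from acinar cells, had 2 reads in controls and stood at 10.8, 15.3, 12.2 and 4.36 CPM with sunitinib and 3.08, 4.57, 1.28 and 6.81 CPM with R+S, 870.5-fold (241 to 7194) and 320.3-fold (88.3 to 2651) over control (95% counting intervals). The water channel Aqp8 had 0 reads in controls, 67, 77, 117 and 29 with sunitinib and 8, 15, 9 and 19 with R+S, at least 107-fold and 17.7-fold above 3 reads over the controls. Gatm, the first enzyme of creatine synthesis, which many tissues make, stood at 69.5, 30.3, 40.4 and 37.6 CPM in controls, 47.8, 70.3, 76.5 and 26.7 in sunitinib-treated and 44.2, 51.6, 36.5 and 52.98 in R+S-treated tumors. Its groups overlapped, and its log2 differences from control were 0.32 ± 0.32 (adjusted p = 0.621) and 0.06 ± 0.32 (adjusted p = 0.943).

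Adding rapamycin was compared directly with sunitinib alone. The point estimates of 36 of 37 tested genes were below 0, with a median log2 difference of -1.44 against -0.02 for all genes. The groups did not overlap, with R+S lower, for 7 of the 37 genes (18.9%), against 9.73% of all tested genes, with R+S higher for 0, against 8.9%, and with R+S lower also for Cela3a, which was not tested. By the test, 5 genes were called lower and 0 higher (also 0 higher at an unadjusted p under 0.05 and by DESeq2), where 4.58% of all tested genes were called lower and 2.63% higher. The genes called lower were Prss1 (-5.45 ± 1.19 (adjusted p = 0.0355)), Prss3 (-6.22 ± 1.32 (adjusted p = 0.0343)), Try10 (-2.17 ± 0.46 (adjusted p = 0.0283)), Cuzd1 (-1.70 ± 0.46 (adjusted p = 0.0472)) and Aqp8 (-2.56 ± 0.44 (adjusted p = 0.0261)), on the log2 scale by edgeR. Among the 5, 3 are trypsinogens, which share sequence. Exact permutation p was 0.0286 for Prss1, Prss3, Try10 and Aqp8 and 0.0571 for Cuzd1. Try4 and Try5 missed the threshold with -2.33 ± 0.73 (adjusted p = 0.0681) and -2.80 ± 0.83 (adjusted p = 0.0599). By edgeR none of the 6 lipid digestion genes, 8 tested chymotrypsin, elastase and carboxypeptidase genes or 4 transcription factors passed, whereas DESeq2 also called Pla2g1b and Rbpjl. For Ctrb1 the estimate was -1.85 ± 1.03 (adjusted p = 0.242), for Pnlip -0.91 ± 1.12 (adjusted p = 0.6), for Ptf1a -1.33 ± 0.55 (adjusted p = 0.145) and for Rbpjl -1.64 ± 0.47 (adjusted p = 0.0557), and such standard errors leave both little difference and a several-fold one possible.

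The 5 calls depend on each of the R+S-treated tumors. Without R+S 4, R+S 5 or R+S 7 there were 0 calls (with 10, 14 and 12 genes at an unadjusted p under 0.05), without R+S 10 there were 2 (Aqp8 and Try10), and a fit to the 8 treated tumors alone gave 0 (30 genes at an unadjusted p under 0.05). Calls over all genes were lost in the same fits: 762 genes were lower in the full fit, 1, 0 and 1 without R+S 4, 5 and 7, 186 without R+S 10 and 3 with the 8 treated tumors alone. At an unadjusted p under 0.05 were 24.6, 22.9 and 24.9% of all genes without R+S 4, 5 and 7 and 24.6% with the 8 treated tumors. The loss of these calls was thus not particular to the acinar genes. DESeq2 called 10 acinar genes lower, among 1825 of all genes, namely the same 5 and Amy1, Aqp12, Pla2g1b, Rbpjl and Try5. Without sunitinib 6 there were 4, without sunitinib 8 also 4, and without sunitinib 5 or sunitinib 12 there were 8 each, with Rbpjl called in both and Nr5a2 without sunitinib 12. Without control 3 there were 3, and without control 2 or control 4 there were 4 each. Without control 1 there were 6, with Try4 and Try5 but not Cuzd1. At an unadjusted p under 0.05 were 32 acinar genes without control 1 (29.9% of all tested genes) and 16 in the full fit (30.4%).

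The proportions of the enzymes were compared within each treated tumor, as shares of the reads of the 26 genes. Only reads assigned to a single gene had been counted, so the shares of genes with close copies may be too low. The mixture was similar in all 8 treated tumors although the enzyme total varied 13.6-fold. Ctrb1, Cpb1, Cpa1, Pnliprp1, Pnlip and Cel together made up 63.0% to 68.7% of enzyme reads. Across the 23 enzyme genes with reads in every treated tumor, the highest share was a median of 1.66 times the lowest, and 17 genes stayed under 3-fold. Cela3b (1.21-fold), Cpb1 (1.23-fold) and Cpa1 (1.30-fold) varied least. The order of the median shares in sunitinib-treated and R+S-treated tumors was nearly the same (Spearman rho = 0.964 over 23 genes, which share libraries and are not independent).

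Some shares shifted. Ctrb1 made up 17.7, 22.7, 27.8 and 21.5% of enzyme reads with sunitinib and 18.7, 19.3, 18.4 and 16.9% with R+S, with its highest share in sunitinib 8. Pnlip made up 8.404, 7.09, 5.81 and 6.96% and 10.9, 10.9, 5.26 and 11.1%. Pnliprp1 made up 9.41, 8.41, 7.76 and 9.47% and 8.87, 8.64, 15.4 and 9.07%. In R+S 7, the tumor with the fewest enzyme reads, the share of Pnliprp1 was the highest and that of Pnlip the lowest of all treated tumors, and Cela1 fell to 2.16% from 4.31% to 7.43% elsewhere. By role, the lipid digestion genes took 29.8, 25.4, 23.3 and 26.8% with sunitinib and 32.98, 31.3, 35.5 and 33.01% with R+S, and the groups did not overlap. The trypsinogens took 11.1, 14.1, 15.8 and 14.1% and 10.3, 7.95, 11.1 and 7.87%, with an overlap between sunitinib 5 and R+S 7. Of the 23 genes, Prss1 and Prss3 had shares that did not overlap between the treated groups, both higher with sunitinib. A larger share of 1 gene lowers those of the others, and these shares were not tested.

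**Figure D5:**
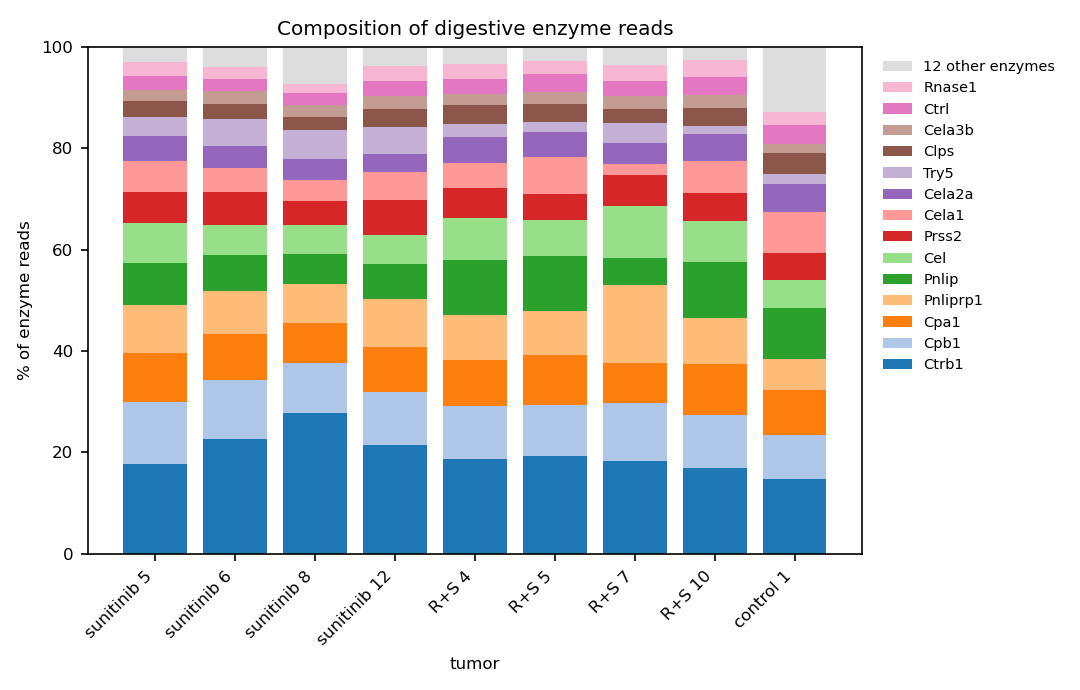
Composition of the enzyme reads (stacked bars, percent) in the 8 treated tumors and in control 1, for 14 enzymes by name and the 12 others together. Ctrb1 is the largest part in every bar, and control 1 has a similar mixture apart from a larger gray part, which holds Amy1.

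The traces in control 1 had a related mixture with more Amy1. Its 5687 enzyme reads included 14.9% Ctrb1, 10.04% Pnlip, 8.76% Cpa1 and 8.63% Cpb1, and 10.7% Amy1. The 6 main enzymes named above made up 54.0% of its enzyme reads, against 63.0% to 68.7% in treated tumors. The order of its shares had a Spearman rho of 0.760 with that of the sunitinib medians over 23 genes, and of 0.945 over 22 genes without Amy1, with Prss1 and Prss3 at 0. Controls 2, 3 and 4 had 142, 130 and 298 enzyme reads apart from Amy1, too few for a composition gene by gene.

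Levels were scaled by exon length to set the genes beside each other. Reads that align to several places had been dropped, so genes with close copies may rank too low. In sunitinib-treated tumors the order of counted levels began with Ctrb1 at a median of 8864 CPM per kb. Prss2 (2195), Try5 (1821), Cpa1 (1675), Clps (1535) and Pnliprp1 (1294) followed. In R+S-treated tumors Ctrb1 (2464) was followed by Prss2 (757), Clps (657), Cpa1 (620), Pnlip (564) and Pnliprp1 (446). The ranges of neighbouring genes in these orders overlapped across tumors, those of Ctrb1 and Prss2 included. Within every treated tumor, however, Ctrb1 was above Prss2 per kb. The factors were far lower: with sunitinib the medians were 10.4 CPM per kb for Bhlha15, 5.31 for Rbpjl, 2.49 for Ptf1a and 0.432 for Nr5a2.

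The summed length-scaled level of the 4 factors over that of the enzymes was -3.29, 1.68, 1.304 and 0.2495 in controls on the log2 scale. With sunitinib it was -10.3, -11.02, -10.2 and -9.61, and with R+S -8.93, -10.04, -7.75 and -9.38. The controls lay far above the treated tumors. Bhlha15 was present in all 12 tumors. The summed enzyme level was 83.8, 5.67, 4.48 and 8.99 CPM per kb in the controls and at least 2433 in treated tumors. In control 1 it exceeded that of the 4 factors (8.57). Per 1e+06 units of summed enzyme level, Ptf1a alone stood at 90.2, 86.01, 107 and 93.7 with sunitinib and 88.4, 90.7, 170.5 and 134 with R+S. For Rbpjl the values were 205, 192, 198 and 167 and 189, 135, 501 and 177. R+S 7 was the highest treated tumor for both PTF1 subunits, and the 7 others lay between 86.0 and 134 for Ptf1a and between 135 and 205 for Rbpjl. Bhlha15, by contrast, stood at 503, 176, 502 and 1011 and 1763, 704, 3899 and 1177.

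The PTF1 complex is known to bind an E box (CANNTG) together with a box of the type TTTCCCA. In 250 bases before the start, taken from RefSeq promoters on GRCm38.p6 that matched 33 of the 40 genes with 35 promoters, the letters CACCTG occurred on either strand in 19 promoters (54.3%), against 17.2% of all 32851 promoters. TTCCCA also occurred in 19 (54.3%), against 21.6% of all. Both occurred in 9 (25.7%), against 3.91% of all. The E box CAGCTG occurred in 6 (17.1% against 13.0%). Of the other letters searched, TATAAA occurred in 11 (31.4% against 12.4%) and AAGGTCA in 4 (11.4% against 4.08%). A share above that of all promoters was thus not particular to the letters of PTF1. CACCTG and TTCCCA can share 2 bases where they adjoin. A match describes these letters only. For each of 4 roles, the 250 bases of the gene with both motifs and the highest mean log2 CPM over all 12 tumors (Cela2a, with both motifs, was more abundant than Ctrl in treated tumors) are shown 5′ to 3′ on the strand of the gene, with both motifs in capitals.
Cel (chr2:28563404-28563653, - strand): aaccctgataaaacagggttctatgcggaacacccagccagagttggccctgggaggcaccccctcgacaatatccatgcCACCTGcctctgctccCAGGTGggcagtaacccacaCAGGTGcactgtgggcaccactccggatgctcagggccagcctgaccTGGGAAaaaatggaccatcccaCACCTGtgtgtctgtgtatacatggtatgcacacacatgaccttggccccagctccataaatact
Ctrl (chr8:105933863-105934112, - strand): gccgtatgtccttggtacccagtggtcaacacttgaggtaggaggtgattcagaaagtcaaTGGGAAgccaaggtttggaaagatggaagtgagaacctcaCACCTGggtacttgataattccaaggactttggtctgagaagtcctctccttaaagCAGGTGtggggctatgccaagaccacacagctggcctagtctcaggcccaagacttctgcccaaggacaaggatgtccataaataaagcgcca
Prss2 (chr6:41521526-41521775, + strand): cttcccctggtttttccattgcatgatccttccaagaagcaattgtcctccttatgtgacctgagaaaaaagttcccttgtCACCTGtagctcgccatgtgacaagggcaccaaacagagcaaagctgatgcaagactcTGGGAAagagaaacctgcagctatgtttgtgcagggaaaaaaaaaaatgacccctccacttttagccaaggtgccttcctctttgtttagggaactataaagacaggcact
Rbpjl (chr2:164402944-164403193, + strand): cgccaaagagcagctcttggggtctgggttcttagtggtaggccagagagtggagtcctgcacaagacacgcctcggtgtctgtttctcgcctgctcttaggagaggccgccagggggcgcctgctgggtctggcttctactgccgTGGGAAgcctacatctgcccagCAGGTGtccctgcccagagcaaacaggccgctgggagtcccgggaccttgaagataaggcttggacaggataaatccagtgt
The Cel promoter holds 4 CACCTG matches and 1 of TTCCCA, that of Ctrl 2 and 1, and those of Prss2 and Rbpjl 1 of each.

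A further 24 genes known from acinar cells, among them secretory pathway proteins, receptors and transcription factors, were chosen as a list beside the 40, and 20 were tested. Against control 12 were higher with sunitinib and 11 with R+S by edgeR, against 1.93% and 1.55% of all tested genes, and 0 were lower (1 and 0 at an unadjusted p under 0.05, and 0 by DESeq2), against 2.55% and 2.61%. Those that rose most were, with sunitinib, Gm5771 (0 reads in controls, at least 14277-fold) and the trypsin inhibitor Spink1 (11.07 ± 0.99 (adjusted p = 5.02e-05)), and with R+S also Gm5771 (at least 344-fold) and Tmed11 (0 reads in controls, at least 86.96-fold). Cckar, the cholecystokinin receptor through which secretion is stimulated, rose from at most 0.128 CPM in controls to 30.5, 41.9, 38.99 and 7.32 CPM with sunitinib and 10.3, 12.5, 7.397 and 21.4 CPM with R+S. Chrm3, the muscarinic receptor, did not differ past the threshold (-0.71 ± 0.53 (adjusted p = 0.488) and -0.08 ± 0.53 (adjusted p = 0.953)). Sctr, the secretin receptor, had 5, 35 and 22 reads in the 3 groups and was not tested.

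Genes of the general secretory route were already present in controls and did not pass: Xbp1, a regulator of the endoplasmic reticulum, stood at 274 to 389.5 CPM in controls, 276 to 349 with sunitinib and 284 to 362 with R+S, and the granule proteins Rab3d and Vamp8 at 99.3 to 199 and 38.2 to 58.8 CPM in controls. The pancreas-specific chaperones Pdia2 and Erp27 rose by 7.82 ± 0.62 and 7.42 ± 0.54 with sunitinib and 6.34 ± 0.603 and 5.71 ± 0.51 with R+S. Among the transcription factors Gata4 was higher with sunitinib (3.23 ± 0.79 (adjusted p = 0.0402)), with 14.9, 4.59, 3.85 and 0.963 CPM against 1.05, 0.212, 0.3805 and 0.9302 in controls. Sunitinib 5 was far above the rest, sunitinib 12 lay within the controls, and the call was lost in 5 of 8 fits without 1 tumor, with adjusted p up to 0.136. Gata6 (1.43 ± 0.39 (adjusted p = 0.068)) did not pass. Between R+S and sunitinib, Gm5771 (-5.29 ± 1.06 (adjusted p = 0.0309)), Spink1 (-2.88 ± 0.63 (adjusted p = 0.0299)) and Erp27 (-1.71 ± 0.402 (adjusted p = 0.0343)) were lower and Itpr3, a calcium release channel of the endoplasmic reticulum, higher (1.12 ± 0.19 (adjusted p = 0.0241)), where 4.58% of all tested genes were lower and 2.63% higher. As for the 40 genes and nearly all others, there were 0 calls without R+S 4, R+S 5 or R+S 7.

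Markers of other cells of the pancreas were examined beside these values. The 7 duct markers summed to 388 to 509.7 CPM in controls, 249 to 619.5 with sunitinib and 369 to 467 with R+S, with 2 of 7 called higher with sunitinib and 0 with R+S by edgeR (2 at an unadjusted p under 0.05 and 1 by DESeq2). The 5 endothelial markers summed to 256 to 394, 23.5 to 42.8 and 54.7 to 69.5 CPM, and all 5 were lower than control in both treated groups. The 15 islet endocrine markers had 0 calls against control by edgeR (0 with sunitinib and 2 with R+S at an unadjusted p under 0.05, and 0 and 1 by DESeq2). The 6 leukocyte markers summed to 122 to 186, 57.1 to 137 and 103 to 160.4 CPM, with 1 of 6 lower with sunitinib. The 5 fibroblast markers summed to 303 to 876, 660.02 to 944 and 392 to 491 CPM, with 0 calls against control by edgeR and by DESeq2 (0 and 1 at an unadjusted p under 0.05). None of these markers was at 0 in a group. Their part in the acinar values was not tested.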

How the data were processed

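RNA had been sequenced from 12 tumors as stranded poly(A) libraries. The authors deposited raw counts, 1 table per tumor, as whole numbers of reads per gene without normalization. The submitters' processing notes name cutadapt 1.2.1, TopHat2 2.0.9, HTSeq 0.5.4p3 and GRCm38, without an annotation release. HTSeq drops reads with several alignments and those lying over more than 1 gene, so genes with close copies are undercounted. The part set aside as not unique was 33.3 to 39.7% of all counts in controls. It was 43.9 to 51.8% with sunitinib (highest in sunitinib 8) and 32.3 to 42.1% with R+S (lowest in R+S 7). What this difference does to comparisons between groups was not tested. The 5 closing summary lines of each table were left out.

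Symbols were assigned to 37607 of 38924 genes from GENCODE M21, which also gave positions and exon lengths. The main test was edgeR 4.0.16 (R 4.3.3, limma 3.58.1), with TMM scaling, robust dispersion and quasi-likelihood F-tests. The filter was filterByExpr (min.count 10, min.total.count 15). All 12 tumors entered 1 fit with 3 contrasts, with Benjamini-Hochberg adjustment over all 16645 tested genes in each contrast and a threshold of 0.05. The SE of a log2 difference is its size divided by the square root of F. CPM is per 1e+06 reads of the TMM-scaled library, and log2 CPM has a prior count of 2. Exact permutation tests were two-sided over 70 arrangements. Bounds for genes with 0 reads use 3 reads over the group, and these and the 95% intervals cover counting error only. The totals of 31872342 to 44215054 reads per tumor leave genes with a few reads imprecise. The fit was tested on simulated counts of the sunitinib comparison, where it recovered 27 of 100 genes changed by 1 and 69 of 100 changed by 2 on the log2 scale, with 5 of the unchanged genes called, among 16645 genes.

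The values of some single genes of the wider acinar list are not reported here. Values in every tumor are given for the 4 transcription factors and, in each role, for up to 4 genes with the highest mean log2 CPM over the 12 tumors. The genes and lists were chosen with earlier results of these data known. Alternatives were RLE or library-size scaling, TMM without the 40 genes, no filter, 10 reads in each tumor, DESeq2 1.42.0, only the 8 tumors compared, tumors of 1 label prefix summed, and each tumor left out. The groups compared follow the sample labels.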

Additional observations from a re-analysis of the deposited data

Results flagged for a closer look

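Of 87 groups of 4 tumors examined for a tumor apart from the other 3, 9 were flagged. Chance flags about 1 in 20 independent groups. Acinar genes varied together within a tumor, so the 9 cannot be set against that rate. In controls, control 1 stood above the others in the share of gene reads on the 40 acinar genes (0.0252%), in Cela1 (9.86 CPM), in Clps (5.09 CPM) and, by a single read, in Amy2a2 (0.0214 CPM). In sunitinib-treated tumors, sunitinib 12 stood below the others in Amy2b (52.3 CPM) and Cel (737 CPM). In R+S-treated tumors, R+S 4 was apart in Nr5a2 (0.444 CPM) and Amy2a5 (0 CPM, where the others had 1 read each), and R+S 7 was below the others in Try4 (39.7 CPM). The same gap was not flagged for the remaining genes given in every tumor.

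The effect against the same controls differed between R+S and sunitinib for 5 genes by the edgeR contrast of the treated groups, R+S minus sunitinib on the log2 scale: Prss1 (-5.45), Prss3 (-6.22), Try10 (-2.17), Cuzd1 (-1.70) and Aqp8 (-2.56), with adjusted p of 0.0355, 0.0343, 0.0283, 0.0472 and 0.0261. All 4 R+S-treated tumors were below all 4 sunitinib-treated tumors in each of them except Cuzd1. The same was so for 9.73% of all tested genes. The calls were lost without R+S 4, R+S 5 or R+S 7, as were nearly all calls over all genes.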

How the results depend on the processing

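Of 1601 values recomputed for 35 single genes, 1502 kept their direction and their side of the threshold, 65 lost the call, 20 gained it and 14 changed sign, all of the last in genes without a call. Scaling by RLE, by library size or by TMM without the acinar genes left the counts of acinar genes called within 1 of the reported ones. Requiring 10 reads in each tumor left 7 acinar genes, since most had few reads in controls: 3 were higher with sunitinib, 3 with R+S, and 0 were lower between R+S and sunitinib, and of the other acinar genes 1 was called in each comparison. The 5 acinar genes lower with R+S than with sunitinib became 2 without a filter, 10 by DESeq2, 0 with only the 8 tumors compared, 1 with label prefixes summed, and 0 to 8 with 1 tumor left out. Genes called lower over the whole table moved too: from 762 to 292, 1825, 3, 609 and 0 to 1691. The 4 other acinar genes called there became 2, 7, 0, 1 and 0 to 5. The cause was not tested.

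The log2 ratio of transcription factors to enzymes, -10.3 with sunitinib and -9.15 with R+S, became -8.68 and -7.76 without division by length and -4.25 and -3.69 as a difference of mean log2 CPM. Changes of sign were in small differences. With 1 tumor left out, Bhlha15 ran from -0.41 to 0.11 (sunitinib against control), from -0.36 to 0.13 (R+S against control) and from -0.20 to 0.27 (R+S against sunitinib, -0.0022 with 10 reads in each tumor). Chrm3 ran from -0.30 to 0.077 and Gatm from -0.085 to 0.36 (R+S against control). Gatm was 0.050 between R+S and sunitinib with prefixes summed. No paired analysis was possible because the groups share at most 1 replicate number. Depth limits Amy2a2, Amy2a5 and Cela3a, which were not tested.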
